A study of Tribolium castaneum with 16 samples.

Results

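Open chromatin was compared between the second thoracic segment (T2), which bears the elytron, and the third thoracic segment (T3), which bears the hindwing, in last-instar larvae of the red flour beetle Tribolium castaneum. The comparison rests on the 6 peak lists whose sample titles name T2 or T3 and FAIRE, 3 per segment, out of 14 FAIRE lists and 16 samples in the series. The T2 group and the T3 group each held 3 samples of a wing disc dissected together with the lateral epidermis around it, from larvae of the pu11 enhancer-trap strain picked by the activity of the trap. All 6 samples shared the strain, the stage and a fixation of 30 minutes at 25 °C, and their labels name no other treatment or allele. The number of animals in a sample and its sex are not given in the sources used here, and nothing says whether the 3 samples of a segment came from separate batches of larvae, so the p-values measure the spread between these samples, which may be technical. Peaks of the 6 lists that overlapped by at least 1 bp were merged into 31164 regions, against 52384 regions over all 14 lists.

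FAIRE-seq sequences the DNA that stays in the aqueous phase after fixed and sheared chromatin is extracted with phenol and chloroform, which enriches stretches with few nucleosomes, such as active promoters and enhancers. Beetles carry a pair of hardened forewings, the elytra, on T2 and a pair of membranous flight wings on T3. In Tribolium the Hox gene Ultrabithorax acts in T3 to make a hindwing, and when it is lost the hindwing forms as an elytron. The wing discs and the body wall of both segments otherwise use much the same set of wing-patterning genes, and the question addressed is whether their open chromatin differs and where. Genes near the regions are not named, because no gene annotation on the genome build of the lists was used here, and for the same reason the tissue label was not checked against marker genes.

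The lists held 9725, 20616 and 20670 peaks in T2 replicates 1, 2 and 3, against 22403, 22046 and 24689 peaks in T3 replicates 1, 2 and 3. T2 replicate 1 stood apart from the other 5 lists. The background depth of a list, in extended reads expected at a typical position and recovered from the authors' fold enrichment and p-values, was 1.96, 3.78 and 3.59 in the T2 lists and 4.16, 4.21 and 5.77 in the T3 lists. Every T3 list was thus deeper than every T2 list. Results are given with and without T2 replicate 1. Since each sample is a mixture of cells, fewer cells of a type and less open chromatin per cell cannot be told apart.

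Most regions were shared between the segments. Of the 31164 regions, 8242 (26.4%) were called in all 6 lists, 5516 (17.7%) in 5 lists and 7616 (24.4%) in a single list. The median width was 387 bp where all 6 lists had a peak, and 154 bp where a single list had one. Among the regions called in 5 lists, 5104 lacked only T2 replicate 1. The other single gaps were fewer, with 33 regions lacking only T2 replicate 2, 96 lacking only T2 replicate 3, 216 lacking only T3 replicate 1, 31 lacking only T3 replicate 2 and 36 lacking only T3 replicate 3. The large gap therefore belonged to one shallow T2 list and not to the T2 group.

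The order of the shared regions by strength was nearly the same in both segments. Each region called in all 6 lists was given the largest fold enrichment, a ratio over local background and the authors' own value, of its peaks in a list. The regions were then ranked within each list, as a percentile from 0 for the weakest to 100 for the strongest. Spearman's rho between T2 replicates 2 and 3 was 0.883, and between T3 replicates it was 0.849 for 1 and 2, 0.837 for 1 and 3 and 0.881 for 2 and 3. Pairs of 1 T2 and 1 T3 list without T2 replicate 1 gave from 0.817 to 0.889, and the highest of all 15 pairs was T2 replicate 2 with T3 replicate 2. All 5 pairs with T2 replicate 1 were lower, from 0.639 to 0.694. These values run across 8242 regions of the same genome, which are not independent replicates.

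**Figure D1:**
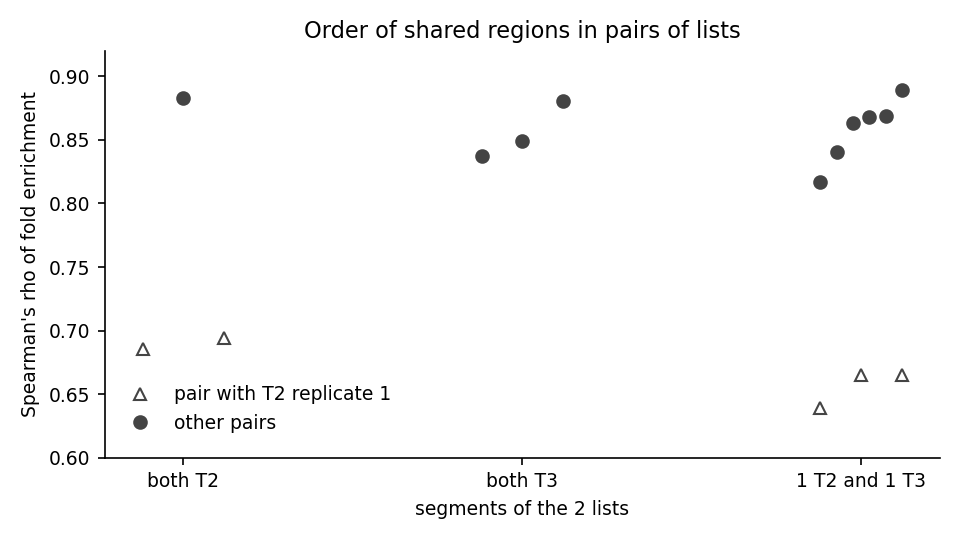
Spearman's rho of fold enrichment over the 8242 regions called in all 6 lists, for each of the 15 pairs of lists (1 point per pair), grouped by the segments of the 2 lists. Pairs with T2 replicate 1 (open triangles) lie between 0.639 and 0.694, and the other pairs (filled circles) lie between 0.817 and 0.889 whether or not they share a segment.

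Pairs within a segment had a mean rho of 0.805, against 0.791 for pairs across segments, which is 0.0144 apart. In an exact permutation test over the 10 partitions of the 6 lists into 3 and 3, no other partition gave a larger difference (exact p = 0.1, one-sided, n = 3 per segment, the smallest that this design allows, adjusted p = 0.15 over 3 tests). The other 9 partitions gave from −0.0147 to 0.0107. When regions were ranked on linkage groups alone, without unplaced scaffolds, the difference was 0.0113. Another partition then gave a larger one, 0.0148 (exact p = 0.2, one-sided, n = 3 per segment). Without T2 replicate 1 the difference was 0.00956 (exact p = 0.3, one-sided, 10 partitions into 2 and 3), against a median of 0.00405 for the other partitions of those 5 lists.

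Rank differences between the segments were small at most regions. The mean T2 percentile minus the mean T3 percentile lay between −6.55 and 6.89 points for the middle 50% of the 8242 regions, and within 20 points for 90.9% of them. It exceeded 30 points in 122 regions, of which 35 ranked higher in T2 and 87 higher in T3, and 50 points in 3 regions, all higher in T3. The farthest regions thus lay more often on the T3 side, while the middle of the distribution was centred at 0.0647 points.

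**Figure D2:**
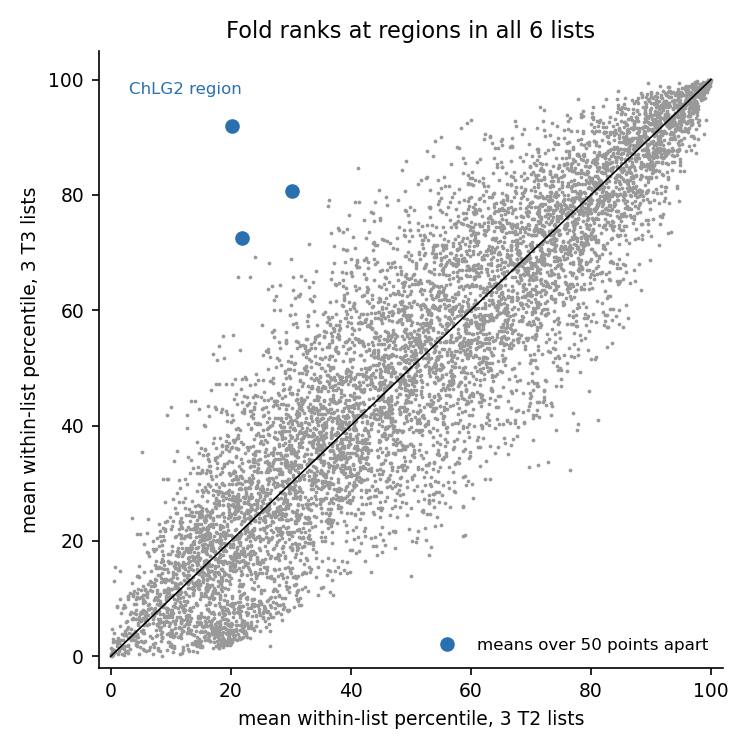
Mean within-list percentile of fold enrichment in the 3 T2 lists (horizontal axis) and in the 3 T3 lists (vertical axis), 1 grey point for each of the 8242 regions called in all 6 lists, with the line of equal percentiles. The 3 blue points are the regions whose means differ by over 50 points, and the region on ChLG2 lies farthest from the line, at 20.2 in T2 and 92.0 in T3.

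In 1080 of the 8242 regions (13.1% of those tested) the 3 T2 ranks and the 3 T3 ranks did not overlap. They ranked higher in T2 in 566 regions (6.87% of those tested) and higher in T3 in 514 regions (6.24% of those tested). In an exact permutation test of this share over the 10 partitions of the lists, the 9 others gave from 6.65% to 13.4% with a median of 9.46%, and 1 of them exceeded T2 against T3 (exact p = 0.2, one-sided, n = 3 per segment, adjusted p = 0.2 over 3 tests). That partition set T2 replicates 1 and 3 with T3 replicate 1 against the other 3 lists. By fold over all shared regions, the share separating the segments thus lay within the range given by other groupings of the same lists. In some other settings, given below and at the end, it lay above that range. Without T2 replicate 1, 13349 regions were called in all 5 lists, and 3216 of them (24.1%) had ranks that did not overlap, 1721 higher in T2 (12.9%) and 1495 higher in T3 (11.2%). The other 9 partitions of the 5 lists gave from 16.4% to 22.6% (exact p = 0.1, one-sided, n = 2 and 3, the smallest possible).

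**Figure D3:**
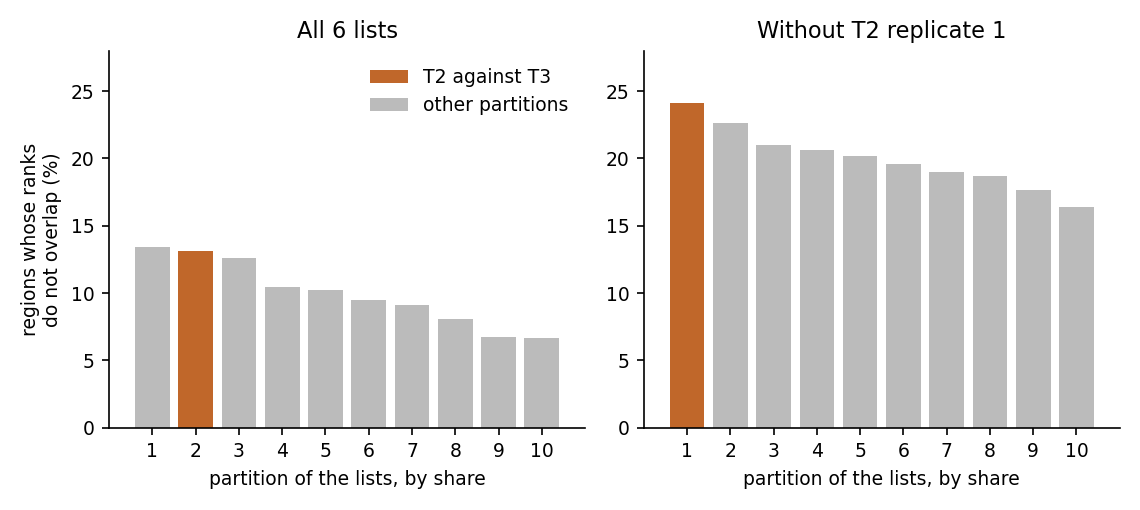
Share of regions whose ranks do not overlap between the 2 sides, as a percentage of the regions called in all lists used, for the 10 partitions of the 6 lists into 3 and 3 (left) and of the 5 lists without T2 replicate 1 into 2 and 3 (right), in falling order. T2 against T3 (orange bar) comes second on the left, at 13.1%, and first on the right, at 24.1%.

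Unplaced scaffolds moved with these counts. They held 1443 of the 8242 shared regions, but 210 of the 566 regions higher in T2 (37.1%) and 29 of the 514 higher in T3 (5.64%). On scaffolds the median percentile was 42.8, 16.9 and 19.4 in T2 replicates 1, 2 and 3, against 13.7, 16.5 and 16.9 in T3 replicates 1, 2 and 3, so T2 replicate 1 ranked scaffold regions far above the other lists. When regions were ranked on linkage groups alone, 827 of 6799 regions (12.16%) did not overlap, 441 higher in T2 and 386 higher in T3. No other partition gave a larger share (exact p = 0.1 by permutation, one-sided, n = 3 per segment). The lead was slight, since the other partitions gave from 7.13% to 12.09%. The closest set T2 replicates 1 and 2 with T3 replicate 1 against the remaining lists.

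One region passed the test across all regions. limma was run on normal scores of the ranks, and 1 of the 8242 regions (0.0121%) had a Benjamini-Hochberg adjusted p below 0.05, while 482 (5.85%) had an unadjusted p below 0.05. It spans 1003 bp on linkage group 2, on ChLG2 from 9968353 to 9969355. Its fold enrichment was 4.08, 3.85 and 3.70 in T2 replicates 1, 2 and 3, against 10.1, 11.2 and 8.44 in T3 replicates 1, 2 and 3. The T2 values lay close together and all below the T3 values. It stood at the percentiles 27.7, 17.7 and 15.1 in the T2 lists, against 89.5, 95.7 and 90.8 in the T3 lists, so a weak shared region in T2 was among the strong ones in T3. Averaged over 3 lists a segment, the percentile was 20.2 ± 6.61 (SD) in T2 against 92.0 ± 3.28 (SD) in T3, the widest gap of all 8242 regions. On the scale of normal scores T2 minus T3 was −2.28 ± 0.268 (SE), with a limma adjusted p of 0.0344.

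The peaks behind this region were also wider and taller in T3. The T2 peaks were 269, 451 and 400 bp wide in replicates 1, 2 and 3, while T3 replicates 1 and 3 had single peaks of 1003 and 950 bp and T3 replicate 2 had a peak of 619 bp and a weaker one of 274 bp with a fold of 2.28. The recovered number of extended reads over the summit was 18, 30 and 34 in the T2 lists, against 104, 93 and 98 in the T3 lists. The local background was 3.65, 7.04 and 8.45 in T2 and 9.38, 7.36 and 10.7 in T3. The backgrounds of T2 replicate 3 and T3 replicate 2 were thus in the reverse order to the peaks. The main summits of the 6 lists lay at positions 9969110, 9969059 and 9969148 in T2 and 9969142, 9969068 and 9969087 in T3, so both segments had their maximum in the same stretch. In the other tissues the region was called in both lists of embryos aged 0 to 24 h, with folds up to 3.98 and 5.11. It was called in none of the 4 lists of older embryos or the 2 lists of larval brain, titled CNS. The older embryo lists had background depths from 1.89 to 2.53, against 3.71 and 4.72 in the lists of 0 to 24 h.

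The call at this region was lost when any list was left out. It had the smallest p of all regions in each of the 18 settings in which it could be tested, the one reported included, and passed the threshold in 6 of them. Leaving out any 1 of the 6 lists raised its adjusted p to between 0.0612 and 0.513 in limma, while T2 minus T3 lay between −2.39 and −2.14, near the −2.28 of all 6 lists. Its direction could not turn, since its ranks do not overlap. Without T2 replicate 1 the difference was −2.39 ± 0.279 (SE) with an adjusted p of 0.0612 over 13349 regions, and no region passed. In that setting 896 regions (6.71%) had an unadjusted p below 0.05 in limma.

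The surroundings of the ChLG2 region also held several peaks called in T3 and not in T2. Within 100 kb on either side lay 58 regions, of which 7 had a peak in each T3 list but in no T2 list, and 0 had the reverse pattern. Over all 31164 regions the first class held 541 (1.74%) and the second held 1 (0.00321%). When the linkage groups were cut into 850 bins of 200 kb that held a region, the bin from 9800 to 10000 kb of ChLG2 had 6 regions called in T3 only, the highest count of a bin. The next 8 bins had 4 each, and 509 bins had none. The bin on ChLG2 was also rich in regions of any kind, with 54 against a median of 28, so the 6 were 11.1% of its regions. Among the 9 bins with 4 or more, 2 had a higher share, with 4 of 27 (14.8%) on ChLG4 from 12200 to 12400 kb and 4 of 35 (11.4%) on ChLG9 from 15200 to 15400 kb. This bin was singled out after its values were seen, and the count was not tested.

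The 7 peaks called in T3 only lay between 8.32 and 65.6 kb from the centre of the ChLG2 region, with folds from 2.53 to 6.01. The nearest, on ChLG2 from 9977020 to 9977323, had folds of 3.72, 4.40 and 4.78 in T3 replicates 1, 2 and 3, and was called in all 8 embryo and CNS lists. The one with the highest single fold, on ChLG2 from 9916954 to 9917170, had folds of 6.01, 3.88 and 3.74 in T3 and was called in none of those 8 lists. Of the 7, 5 were called in a CNS list and 2 in no list outside the epidermis. Over all 541 regions called in T3 only, 75.8% had a peak in a CNS list and 17.9% in no embryo or CNS list. The set was therefore mixed, as was the whole class, with peaks shared with other tissues beside peaks seen in T3 alone.

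Other neighbours went both ways. Of the other 17 regions within 100 kb that were called in all 6 lists, 2 had T2 ranks above all T3 ranks and 3 had T3 ranks above all T2 ranks. Over all 8242 regions these classes held 6.87% and 6.24%, and the counts near the ChLG2 region were not tested. On the T3 side, the region on ChLG2 from 9932297 to 9932618, 36.4 kb before the centre, had folds of 4.05, 5.83 and 6.21 in T2 against 7.86, 6.37 and 6.66 in T3, a difference of −26.4 points. The others on that side were from 9928458 to 9928943 and from 9954053 to 9954442, with differences of −16.5 and −12.9 points. On the T2 side, a region of 280 bp on ChLG2 from 9975286 to 9975565, 6.57 kb from the centre, had folds of 9.90, 11.7 and 10.7 in T2 against 7.84, 8.91 and 7.78 in T3, and its T2 ranks lay above its T3 ranks. Another of 364 bp on ChLG2 from 10041480 to 10041843 had folds of 5.80, 7.49 and 7.67 in T2 against 6.07, 5.51 and 4.72 in T3. A region of 645 bp on ChLG2 from 9988497 to 9989141, not called in T2 replicate 1, had folds of 6.70 and 5.74 in T2 replicates 2 and 3 against 8.07, 10.8 and 11.8 in T3 replicates 1, 2 and 3. The percentile differences of the 17 ran from −26.4 to 25.1 points, against −71.8 points at the centre, and their adjusted p in limma was 0.75 or higher.

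**Figure D4:**
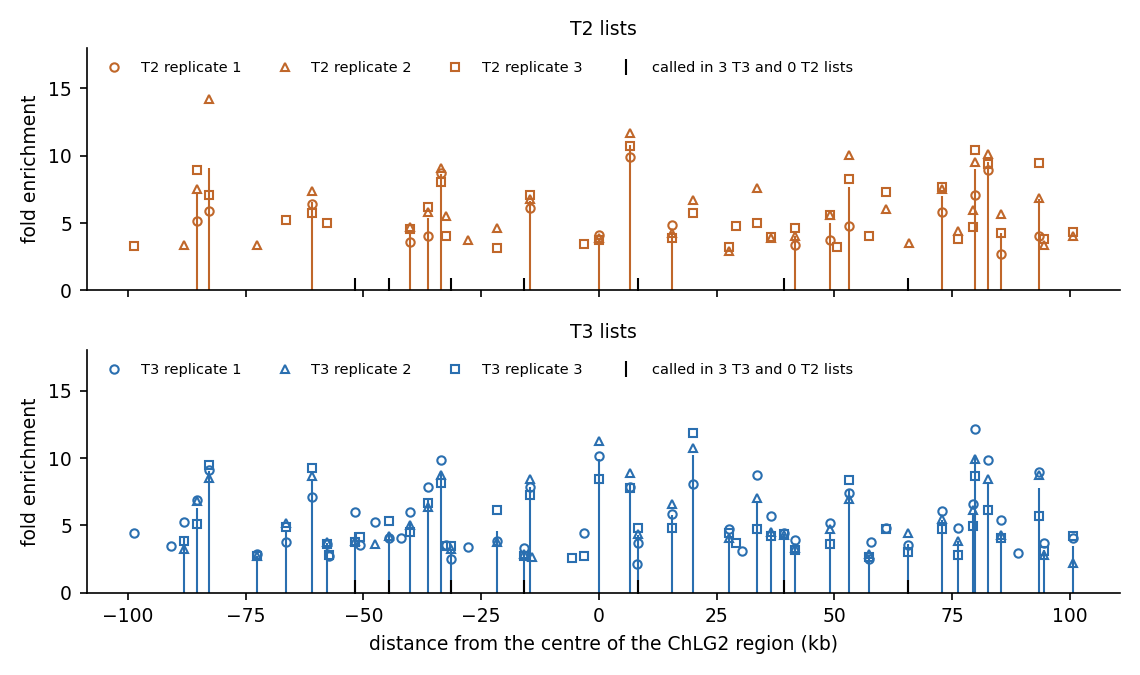
Fold enrichment of the 58 regions within 100 kb of the ChLG2 region, by distance in kb from its centre, in the T2 lists (top) and the T3 lists (bottom). Symbols are single lists, coloured lines rise to the mean where all 3 lists of a segment had a peak, and black ticks mark the 7 regions called in 3 T3 and 0 T2 lists; at distance 0 the T2 folds lie between 3.70 and 4.08 and the T3 folds between 8.44 and 11.2.

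Regions ranked higher in T3 came next. By the rule for named regions, the 10 with the smallest limma p in each direction among those whose ranks did not overlap were taken. That the T2 and T3 ranks of these regions lie apart thus follows from the choice and is not a result. The 10 on the T3 side all lay on linkage groups, were 204 to 1003 bp wide and differed by 14.8 to 71.8 points of mean percentile. All but the ChLG2 region had an adjusted p of 0.75 in limma and did not pass. The 2 others with a gap over 50 points lay on ChLG6 and ChLG9, the ChLG9 one outside the 10.

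The region on ChLG6 from 364376 to 364779 had folds of 3.69, 3.78 and 4.80 in T2 replicates 1, 2 and 3, against 10.7, 6.12 and 6.23 in T3 replicates 1, 2 and 3. All T3 values lay above all T2 values, with T3 replicate 1 far above the other T3 lists. It was called in both CNS lists and in both lists each of embryos aged 0 to 24 h and 24 to 48 h. The region on ChLG9 from 17210941 to 17211388 had folds of 3.14, 6.30 and 4.73 in T2 against 10.7, 5.87 and 10.3 in T3. Its groups overlapped, since T2 replicate 2 lay above T3 replicate 2, and its unadjusted p was 0.00483 in limma (adjusted p = 0.75). It was called in 7 of the 8 embryo and CNS lists.

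Several regions of the T3 side were weak in T2 and of middling strength in T3. The region on ChLG7 from 10778540 to 10778826 had folds of 3.25, 2.90 and 2.70 in T2 against 5.94, 4.43 and 4.27 in T3. The region on ChLG8 from 15592059 to 15592313 had folds of 3.79, 3.09 and 2.81 in T2 against 6.73, 4.71 and 4.67 in T3, and outside the epidermis it was called in both CNS lists only. In both, T3 replicate 1 had the highest value.

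Others were strong in T3 and of middle rank in T2. The region on ChLG9 from 7174158 to 7174662 had folds of 5.13, 6.30 and 7.35 in T2 against 10.2, 11.2 and 8.60 in T3. The region on ChLG6 from 8797218 to 8797421 had folds of 4.23, 6.61 and 4.05 in T2 against 8.15, 8.24 and 7.27 in T3. This last one was the only one of the 10 called in no embryo or CNS list. The remaining 4 of the 10 lay on ChLG3 from 15726770 to 15727307 and from 19676380 to 19676665, on ChLG4 from 13785603 to 13785906 and on ChLG6 from 10234488 to 10235006.

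Of the 10 regions on the T2 side, 8 lay on linkage groups and 2 on scaffolds, and they were 144 to 707 bp wide. Their mean percentiles differed by 31.0 to 44.2 points, and all had an adjusted p of 0.75 in limma. The widest gap of the 8242 regions in this direction was on ChLG1 from 8158854 to 8159173, with folds of 5.40, 10.03 and 8.43 in T2 replicates 1, 2 and 3, against 5.24, 4.56 and 4.20 in T3 replicates 1, 2 and 3. T2 replicate 1 lay just above the highest T3 list on this scale and far above it in rank, at 60.9 against 35.4. The second by p, on ChLG3 from 11489790 to 11490180, had folds of 6.69, 7.81 and 8.73 in T2 against 6.18, 4.75 and 4.39 in T3. Both were called in both CNS lists and in both lists of embryos aged 0 to 24 h.

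A pair of the regions on the T2 side lay on ChLG2. One, from 10089309 to 10089836, was 120.7 kb from the centre of the region that passed the test, with folds of 4.76, 7.07 and 5.29 in T2 against 3.61, 3.62 and 2.57 in T3. It was called in 7 of the 8 embryo and CNS lists. The other, from 9215536 to 9215932, had folds of 6.11, 10.6 and 8.46 in T2 against 5.08, 4.77 and 5.44 in T3. In both, all T2 values lay above all T3 values.

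The region on ChLG7 from 16490021 to 16490262 had folds of 7.44, 6.11 and 8.29 in T2 against 4.75, 4.70 and 4.57 in T3, with T3 values close together, and outside the epidermis it was called in 1 CNS list only. The region on ChLG10 from 8261852 to 8262558 had folds of 8.95, 8.45 and 6.89 in T2 against 6.07, 5.003 and 4.43 in T3 and was called in all 8 other lists. The first 144 bp of scaffold GG695279 had folds of 6.47, 5.68 and 6.38 in T2 against 3.84, 3.76 and 3.87 in T3. The T2 values of these 3 regions lay above all T3 values. The other 3 lay on ChLG3 from 943278 to 943735, on ChLG5 from 10598084 to 10598452 and on scaffold DS497833.1 from 1293 to 1867.

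**Figure D5:**
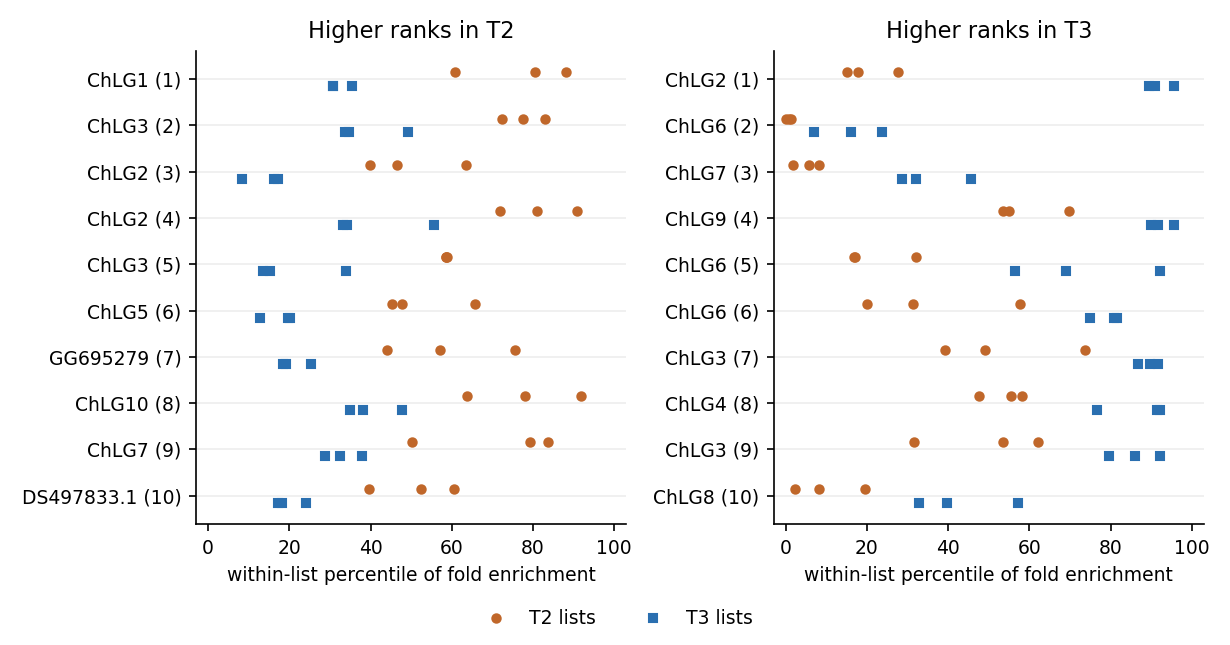
Within-list percentile of fold enrichment of the 10 regions with the smallest p on the T2 side (left) and on the T3 side (right), in the 3 T2 lists (orange circles) and the 3 T3 lists (blue squares), labelled by linkage group or scaffold and order. The first region on the right, on ChLG2, is the 1 that passed the test, with T2 lists from 15.1 to 27.7 and T3 lists from 89.5 to 95.7.

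The regions whose ranks did not overlap were mostly open in other tissues too, as were the shared regions as a whole. Since T2 replicate 1 ranked scaffolds so high, the regions taken here are the 441 higher in T2 and the 386 higher in T3 by the ranking on linkage groups alone. By the ranking over all regions, 356 regions on linkage groups were higher in T2 and 485 higher in T3, so the balance between the segments turned with the ranking. A peak in a CNS list was found at 398 of the 441 regions higher in T2 (90.2%) and 364 of the 386 higher in T3 (94.3%), against 91.5% of all 6799 shared regions there. A peak in an embryo list was found at 419 of the 441 regions higher in T2 (95.01%) and 316 of the 386 higher in T3 (81.9%), against 90.4% of all shared regions. The share in embryo lists was thus higher on the T2 side and lower on the T3 side, also by the ranking over all regions, at 96.6% of the 356 and 80.6% of the 485. No test was made, since regions of the same lists are not replicates. A peak in none of the 8 other lists was found at 13 of the 441 higher in T2 (2.95%) and 16 of the 386 higher in T3 (4.15%). The same held for 179 of all 6799 shared regions there (2.63%).

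Calls in 1 segment alone were almost all in T3. A peak in each T2 list and no T3 list was found at 1 region (0.00321% of 31164), and the reverse at 541 regions (1.74%). In an exact permutation test of their sum, 542, the other 9 partitions of the lists gave from 73 to 422 (exact p = 0.1, one-sided, n = 3 per segment, the smallest possible, adjusted p = 0.15 over 3 tests). In each of those 9, the side with T2 replicate 1 held from 1 to 16 regions called on that side alone. The side without it held from 64 to 408. A lopsided split thus also arose in partitions other than the segments. Depth and list length differed with the segment. With all 6 lists cut to the same number of peaks there were 55 in T2 and 96 in T3. With all lists reduced to the depth of T2 replicate 1 there were 3 in T2 and 326 in T3. In each of these 2 settings another partition gave as many or more, with up to 158 against 151 and up to 348 against 329 (exact p = 0.2, one-sided). Without T2 replicate 1 there were 101 regions in T2 (0.325% of 31118) and 561 in T3 (1.80%), and 4 of the 9 other partitions gave as many or more (exact p = 0.5, one-sided, n = 2 and 3).

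The single region of T2 lay on ChLG3 from 35758458 to 35758694, with folds of 3.92, 3.01 and 4.46 in T2 replicates 1, 2 and 3, and was called in no embryo or CNS list. It was a weak peak, since its folds stood at the percentiles 29.9, 18.1 and 56.4 within the whole T2 lists. The 541 regions of T3 were of modest strength as well. Their median width was 219 bp, and their mean fold over the 3 T3 lists had a median of 3.45, against 5.70 for the regions called in all 6 lists. Within the whole T3 lists their folds had a median percentile of 35.9, against 72.3 for regions called in all 6 lists over their own lists.

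The strongest regions called in T3 alone had folds between 4.29 and 6.56 in all 3 T3 lists. The 10 with the largest smallest fold were 142 to 361 bp wide, and 9 lay on linkage groups. The third of them, on ChLG6 from 9977206 to 9977394, had folds of 5.23, 5.19 and 4.73 in T3 replicates 1, 2 and 3. The fourth, on ChLG5 from 16482034 to 16482269, had folds of 6.56, 4.72 and 5.20, and the fifth, on ChLG1 from 2575746 to 2576106, had folds of 4.45, 6.15 and 4.88. All 3 were called in both CNS lists as well. Of the 10, 8 had a peak in a CNS list, 4 had one in an embryo list and 2 were called in no list outside T3. The stronger of these, on ChLG6 from 10483719 to 10484048, reached folds of 5.24, 6.39 and 5.90 in T3. The weaker, on ChLG10 from 1276895 to 1277126, reached 4.84, 4.61 and 4.43.

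Regions called in T3 alone lay on all linkage groups. They made up between 1.40% and 2.27% of the regions of each linkage group, with 64 of 2899 on ChLG2 (2.21%), and 0.816% of the regions on scaffolds. On linkage groups, 385 of the 498 (77.3%) had a peak in a CNS list and 259 (52.0%) in an embryo list, while 82 (16.5%) had a peak in no other list. Of the 1817 regions called in 3 lists of other combinations, 63.5% had a peak in a CNS list and 58.8% in an embryo list. In 27.9% of the 1817 there was a peak in no other list. Most openings called in T3 alone were thus also called in another tissue, and the 2 CNS lists were the deepest of the series, with background depths of 9.85 and 5.91. The part of that depth in these shares was not tested.

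The 5 regions with the highest mean rank over the 6 lists lay on ChLG6 from 5775077 to 5775468, on ChLG1 from 8191664 to 8192080, on ChLG9 from 7710847 to 7711304, and on scaffolds DS497665.1 from 1007647 to 1008098 and DS497744.1 from 11162 to 11599. The first had folds of 19.6, 19.8 and 20.8 in T2 replicates 1, 2 and 3, against 19.9, 18.5 and 15.3 in T3 replicates 1, 2 and 3. These folds overlapped between the segments, while its percentiles did not, at 99.98, 99.96 and 99.99 in T2 against 99.94, 99.95 and 99.92 in T3. The percentiles of the other 4 overlapped. All 5 were between 392 and 458 bp wide and were called in all 8 embryo and CNS lists. Having been chosen for a high rank in all 6 lists, they could differ little in percentile.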

How the data were processed

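Per the submitters' processing notes, the tools used were Trimmomatic 0.32, Bowtie2 2.2.3, SAMtools 0.1.12a, deepTools 2.5.2 and MACS2 2.1.1.20160309, whose roles, with the genome build, control and filters, are not given in the sources used here. Each deposited list holds the narrow peaks of 1 sample. The authors' fold enrichment is a ratio over local background at the summit, and −log10 p and −log10 q come with it. The series also holds 1 input sample titled T2 and 1 titled T3. Whether they served as controls of the lists is not given in the sources used here. The effect of an input shared by all lists of a segment could not be told apart from the segment. The deposited score, which follows −log10 q, was not used. The smallest −log10 q of the 6 lists lies between 1.30 and 1.32.

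The total number of reads is unknown. Pileup and background at each summit were solved from fold and p, and all pileups of the 6 lists were whole within 0.02. Comparing background depth between lists assumes 1 fragment length and genome size for all.

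Regions called in all 6 lists were ranked within each list, turned into normal scores and tested with limma 3.58.1 (R 4.3.3), without a block, with Benjamini-Hochberg adjustment over all of them. The step was tested on simulated data. Single values were tested by exact permutation over the samples. The named regions are, by rule, the 10 of smallest p per direction with ranks that do not overlap, the 10 regions per direction called in 1 segment alone whose lowest fold is largest, and the 5 of highest mean rank. Members, lists and rules were chosen with earlier results of these data known. Lists of genes could not be placed on the build of the lists and were not used.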

Additional observations from a re-analysis of the deposited data

How the results depend on the processing

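The number of regions past the limma threshold was 1 as reported, and stayed 1 with a merging distance of 100 bp, 200-bp windows on the summits, linkage groups only, all lists thinned to one depth, and a trend with robust moderation. It was 0 when −log10 p was ranked (850 regions at an unadjusted p below 0.05), with the mean of a region's peaks (461), at 50% coverage (329), in the best 50% of each list (244), at equal list sizes of 9725 peaks (366), with percentile ranks (545), with median-centred log2 fold (743), with the replicate number as a block (0 regions, 687) and, added after the data were seen, without T2 replicate 1 on linkage groups only (765). Same-numbered samples of T2 and T3 had deviations that correlated at 0.21, 0.0782 and 0.21. Pairs with different numbers all lay lower, from −0.197 to 0.0469. Whether equal numbers mark a shared batch is not stated in the labels. The main limma test and the permutation tests used no pairing. With the block the ChLG2 region did not pass (adjusted p = 0.0725 in limma). The count was also 0 without each list in turn (from 0 to 0). At 50% coverage, in the best 50% of each list and at equal list sizes the ChLG2 region was not called in all lists. Over the other alternatives its adjusted p in limma ran from 0.0134, with the trend, to 0.764, with the mean of peaks, and the cause was not tested. Regions whose ranks do not overlap made up 16.9% when −log10 p was ranked over 6 lists, where other partitions gave at most 11.4%. T2 against T3 also led at 50% coverage (13.8% against 12.1%), equal list sizes (13.4% against 12.8%) and after thinning (12.86% against 12.76%). The exact p was 0.1 in each (permutation, one-sided). Another partition gave a larger share with the mean of a region's peaks, 100 bp merging, summit windows and the best 50% of each list. The share of regions whose ranks do not overlap ran from 20.6% to 26.2% when a list was left out, a looser criterion. Wherever T2 replicate 1 was kept among the 5 lists, another partition gave a larger share. The largest shares of other partitions then ran from 27.6% to 29.8% (exact p from 0.2 to 0.4 by permutation, one-sided). The one-sided count was 301 in the best 50% of each list, 151 at equal list sizes and 329 after thinning, and from 662 to 1306 when a list was left out, a looser criterion. Pairs within a segment correlated 0.0356 higher than pairs across segments when −log10 p was ranked over all 6 lists. The other partitions gave at most 0.0138 there (exact p = 0.1 by permutation, one-sided). By fold, the difference in rank correlation between pairs within and across segments ran from −0.013 to 0.0594 when a list was left out. The other partitions then had medians from −0.0314 to 0.00405. With T2 replicate 1 kept, the sign was positive in each partition that put it on the side of 2 lists and negative in each that put it on the side of 3, so it says nothing of the segments. Of the regions called in T3 only, 9 of the 10 named were called in fewer T3 lists at equal list sizes. Alternatives that concern regions near genes were not run.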
